A study of Mus musculus with 16 samples.

Results

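The circadian clock of the liver was described through 10 genes, which are Arntl, Clock, Per1, Per2, Per3, Cry1, Nr1d1, Nr1d2, Dbp and Tef. They were chosen by gene symbol, each matched 1 row, and they make up 10 of the 30463 genes in the authors' deposited table. Whole liver of wild-type C57BL/6N mice aged 14 weeks was profiled by RNA sequencing in 16 samples. Mice had been injected at 2 weeks of age with vehicle or with diethylnitrosamine (DEN), a liver carcinogen activated by cytochrome P450 enzymes. From 6 weeks of age they either remained on control diet or were moved to a diet labelled 60% high fat. This gives 4 groups of 4 samples, namely vehicle with control diet, DEN with control diet, vehicle with high fat diet and DEN with high fat diet. The sources used here do not state the sex of the mice or the hour at which livers were taken.

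The clock is a feedback loop of transcription. The proteins of Arntl (BMAL1) and Clock bind E-boxes and switch on the Per and Cry genes, whose products then inhibit that same pair. In a second loop the REV-ERB repressors, made by Nr1d1 and Nr1d2, compete with ROR activators at RORE elements and so silence Arntl. The PAR bZIP factors DBP and TEF carry the rhythm to output genes through D-boxes, where NFIL3 opposes them. In liver this machinery times glucose, lipid, bile acid and drug metabolism, and it is reset by meals, glucocorticoids and body temperature.

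Promoter sequences of 3 members are shown because they carry the elements that tie these loops together and belong to the members whose standard errors, described further on, lay furthest above those of genes with like counts. Windows run from 250 bases before to 50 bases after a transcription start, from RefSeq on GRCm38.p6, written 5′ to 3′ on the strand of the gene. Capitals mark matches to the motifs searched, with both strands included. The Arntl window printed (chr7:113207261-113207560, plus strand), which is not the only one of that gene, holds 2 RORE cores. The Per3 window (chr4:151044616-151044915, minus strand) holds 2 D-boxes. The Cry1 window (chr10:85185005-85185304, minus strand) holds an E-box beside an E-box variant.
Arntl: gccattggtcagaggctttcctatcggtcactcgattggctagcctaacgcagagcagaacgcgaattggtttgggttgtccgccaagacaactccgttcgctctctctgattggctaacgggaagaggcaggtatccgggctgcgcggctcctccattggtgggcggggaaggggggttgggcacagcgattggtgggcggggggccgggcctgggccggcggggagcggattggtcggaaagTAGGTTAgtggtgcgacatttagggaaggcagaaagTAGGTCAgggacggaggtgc
Per3: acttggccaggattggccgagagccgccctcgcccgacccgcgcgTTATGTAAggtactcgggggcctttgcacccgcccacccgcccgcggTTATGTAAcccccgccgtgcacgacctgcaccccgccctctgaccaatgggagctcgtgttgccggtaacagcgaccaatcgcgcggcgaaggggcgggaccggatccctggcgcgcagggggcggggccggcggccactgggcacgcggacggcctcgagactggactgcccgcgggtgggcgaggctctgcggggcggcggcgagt
Cry1: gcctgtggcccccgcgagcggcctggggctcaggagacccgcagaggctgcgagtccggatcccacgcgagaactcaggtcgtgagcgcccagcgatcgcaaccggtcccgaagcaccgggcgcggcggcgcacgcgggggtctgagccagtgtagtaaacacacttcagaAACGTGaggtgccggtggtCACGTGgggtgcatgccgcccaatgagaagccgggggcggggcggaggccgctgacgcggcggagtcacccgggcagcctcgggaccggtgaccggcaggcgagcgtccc

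Of the 10 members, 9 were found in the promoter table, with 14 windows in all, and the entry not found is Per2. The letters searched were CACGTG for the E-box, CACGTT for its variant, TTATGTAA and TTACGTAA for the D-box, and TAGGTCA and TAGGTTA for the RORE core, and no pair of these matches overlapped in the windows printed. In the Arntl window printed, TAGGTTA began 6 bases before the start and TAGGTCA began 30 bases after it. Arntl has another window (chr7:113207215-113207514), in which TAGGTTA began 40 bases after the start and TAGGTCA was not found. Among all 32851 promoter windows, 2.61% held TAGGTCA and 1.44% held TAGGTTA. The Per3 window held TTATGTAA at 205 and 158 bases before the start, a motif found in 0.938% of all windows. CACGTG lay 60 bases before the start in Cry1, 166 bases before it in a window of Per1, and 127 and 138 bases before it in the pair of Tef windows, beside 7.15% of all windows. The CACGTT variant, present in 4.68% of windows, began 79 bases before the start in Cry1 and 28 bases before it in Nr1d1, read as AACGTG on the printed strand. No match to these letters was found in the windows of Clock, Nr1d2 and Dbp. These matches describe letters in short windows and say nothing about occupancy.

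No member of the clock passed the test in the authors' comparison. That comparison is the only one in the deposited table, and its headers do not name the sides, so signs are reported as they stand, with positive and negative sides. With calls made at an adjusted p below 0.05, the authors' deposited table called 0 of 10 members, beside 6.57% of all 16288 genes with an adjusted p. At an unadjusted p below 0.05 there were 2 members, Per1 and Dbp, beside 19% of all tested genes. In sign, 9 of the 10 members were negative, beside 50.8% of all tested genes. The median log2 fold change of the members was -0.14, beside -0.0044 over all tested genes, and the median absolute value was 0.15 beside 0.18.

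**Figure D1:**
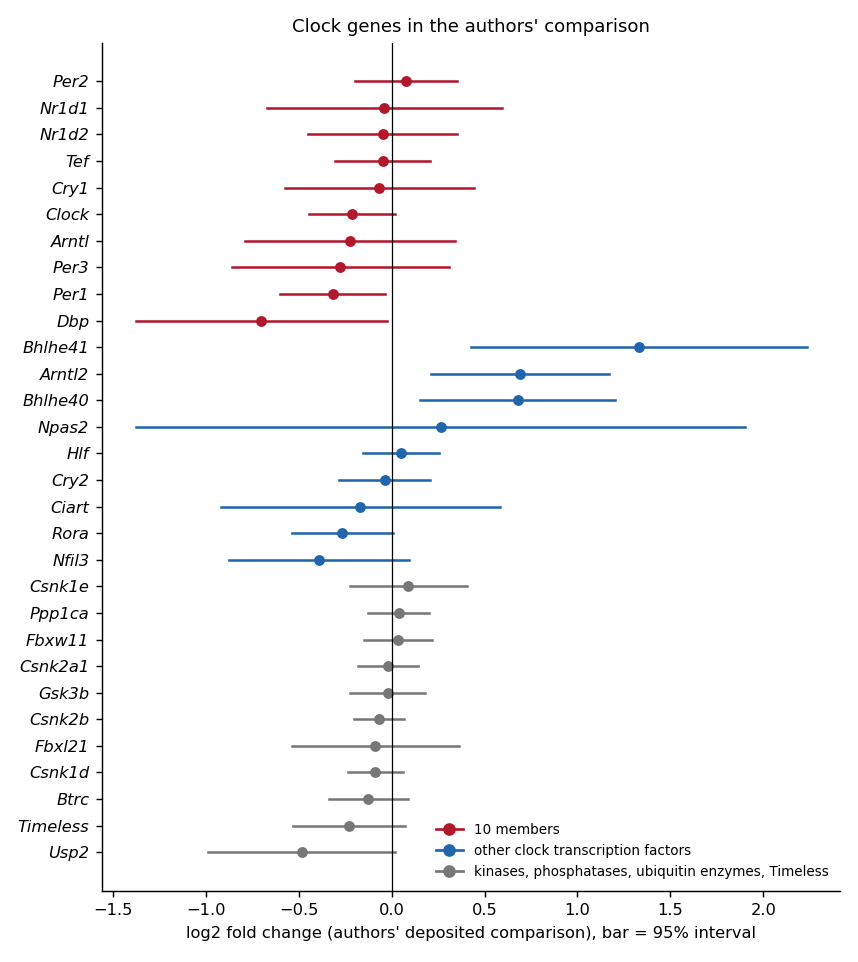
Log2 fold change of the 10 members (red), other clock transcriptional regulators (blue) and clock kinases, phosphatases and ubiquitin enzymes with Timeless (grey) in the authors' comparison. The blue class, labelled transcription factors in the plot, includes the repressors Cry2 and Ciart. Points are the deposited estimates and bars their 95% intervals from the authors' standard error. None of these genes was called; the lowest of the members is Dbp at -0.70 and the only positive member is Per2 at 0.08.

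The activators of the loop had intervals that included no change. Arntl, on chromosome 7 from 113207465 to 113314126 in GRCm38, had a log2 fold change of -0.22 ± 0.29 (SE, adjusted p = 0.741) by the authors' deposited table. Its 95% interval on the linear scale ran from 0.579 to 1.26 times the other side. Clock, its partner, was measured more tightly by the authors' deposited table, at -0.21 ± 0.12 (log2, SE, adjusted p = 0.310), an interval of 0.734 to 1.01 times.

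Among the repressors, Per1 was lowest and Per2 highest. Per1, whose promoter also responds to glucocorticoids, was at -0.32 ± 0.14 (log2, SE, p = 0.0275, adjusted p = 0.188) by the authors' deposited table, an interval of 0.659 to 0.976 times. Per2, which is driven by the same E-box activators, was at 0.08 ± 0.14 (log2, SE, adjusted p = 0.833) by the authors' deposited table, an interval of 0.872 to 1.28 times. Per3 was at -0.28 ± 0.30 (adjusted p = 0.678) and Cry1, the repressor that also restrains gluconeogenesis, at -0.07 ± 0.26 (adjusted p = 0.931), both log2 with SE from the authors' deposited table. The bars of these 4 repressors overlap in the plot of log2 fold changes, and differences between the genes were not tested.

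The REV-ERB genes sat close to 0, with wide bounds. Nr1d1 had a log2 fold change of -0.04 ± 0.32 (SE, adjusted p = 0.969) and Nr1d2 of -0.05 ± 0.20 (SE, adjusted p = 0.936) by the authors' deposited table. On the linear scale the interval was 0.627 to 1.51 times for Nr1d1 and 0.733 to 1.28 times for Nr1d2. Nr1d1 lies on chromosome 11 from 98767932 to 98775333 in GRCm38, and its end overlaps Thra, a thyroid hormone receptor gene on the opposite strand, over 263 of its 3077 exonic bases (8.55%). The authors' deposited table had Thra at -0.08 ± 0.16 (log2, SE, adjusted p = 0.854). The library kit marks strand per the labels, but the sources used here do not state whether counting used it, so reads from the shared bases cannot be told apart.

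Of the PAR bZIP factors, Dbp had the largest absolute log2 fold change of the 10 members. It was at -0.70 ± 0.35 (log2, SE, p = 0.0421, adjusted p = 0.240) by the authors' deposited table, an interval of 0.384 to 0.983 times. Dbp lies on chromosome 7 from 45705088 to 45710203, and 539 of its 2993 exonic bases (18.0%) overlap Sphk2, a sphingosine kinase gene on the opposite strand. Sphk2, with a mean normalized count of 1115 beside 157.9 for Dbp, stood at -0.32 ± 0.13 (log2, SE, adjusted p = 0.141) by the authors' deposited table. Tef was the more tightly bounded of the PAR bZIP pair, at -0.05 ± 0.13 (log2, SE, adjusted p = 0.891) by the authors' deposited table, with an interval of 0.810 to 1.15 times. The other members share no exonic bases with a neighbour except Arntl, with 33 under the antisense gene Gm45355, and Tef, with 193 under the antisense gene Gm17597, both of which had mean normalized counts below 3.

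Levels of the members, per kilobase of exon, ran from 31.7 to 277.01 mean normalized counts. The header of the authors' mean normalized count does not name the libraries it covers. Divided here by exonic length, that mean was highest for Tef at 277.01 per kilobase, followed by Cry1 at 173.6, Nr1d2 at 170.3, Per1 at 139.1 and Per2 at 120.5. Clock was at 89.0, Dbp at 52.7, Arntl at 46.3, Nr1d1 at 35.8 and Per3 at 31.7 mean normalized counts per kilobase. Neighbours in this order cannot be separated, since the spread of a level over samples is not given here. Undivided, the members' mean normalized counts ran from 110.04 (Nr1d1) to 2179 (Tef), all above the lowest mean with an adjusted p, 2.95, so that all 10 were tested.

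Several members had larger standard errors than most genes of similar count. A standard error varies with the count, and its median fell over most of the range and rose again at the highest counts. Each was therefore divided by the median standard error of the 500 tested genes nearest in mean normalized count, a ratio of 1 being typical. The most abundant genes had fewer than 500 such neighbours, mostly of lower count. Of the 10 members, 6 had a ratio of at least 1.5, beside 14.2% of all tested genes, and 4 had a ratio of at least 2, beside 5.45%. The shares of all tested genes pool every count, and a ratio of 1.5 is rarer at low counts. Per3 had the highest ratio at 2.47, followed by Arntl and Cry1 at 2.40 each, Dbp at 2.35, Nr1d1 at 2.00 and Nr1d2 at 1.86. Arntl thus had a standard error above that of 95.8% of the 500 genes nearest to it in mean count, and Per3 above 97% of its own. The ratio was 1.33 for both Per1 and Per2, 1.12 for Tef and 1.07 for Clock, whose standard error exceeded that of 56.4% of its neighbours.

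**Figure D2:**
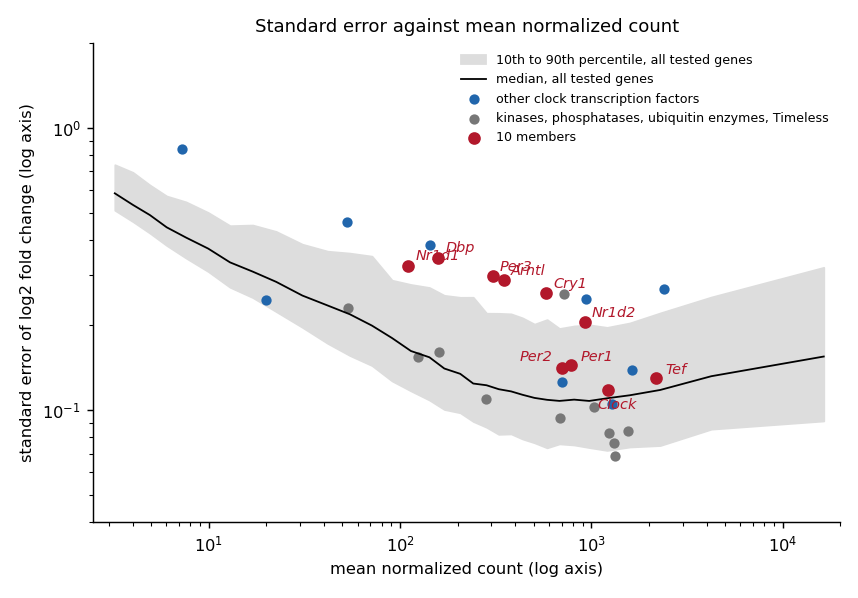
Standard error of the log2 fold change against mean normalized count, both on log axes, in the authors' table; the line and grey band are the median and the 10th to 90th percentile of all tested genes in bins of 500. Nr1d1, Dbp, Per3, Arntl and Cry1 lie above the band and Nr1d2 at its upper edge, while Clock, at a ratio of 1.07, lies near the line.

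The standard error carries the spread between libraries left by the authors' model, the terms of which the sources used here do not state, and it is the only measure of that spread used. The part of hour of collection in it was not tested. Wide standard errors were also not particular to clock genes. Of 32 tested marker genes of liver and blood cell types, 16 had a ratio of at least 1.5, beside 14.2% of all tested genes. Among them were the Kupffer cell gene Clec4f at 2.21 and the sinusoidal endothelial gene Lyve1 at 3.14. The neutrophil genes S100a8 and S100a9 stood at 5.75 and 6.42. Such ratios were found in 4 of 4 Kupffer, 4 of 4 sinusoidal endothelial, 3 of 4 stellate and 2 of 2 erythroid markers. They were found in 0 of 6 hepatocyte markers, whose median ratio was 1.23. Those 6 are among the most abundant genes, so their ratios rest on fewer neighbours, mostly of lower count. Cholangiocyte markers had 1 of 4 (Sox9, count 214.1), T and NK cell markers 0 of 3, and B and plasma cell markers 0 of 3. Mean normalized counts of these T, NK, B and plasma cell markers were at most 12.6, where a ratio of 1.5 is rarer. Around a count of 12.9 the 90th percentile of the standard error was 0.449 beside a median of 0.333. Around 587 it was 0.209 beside 0.109. Classes of unlike count, and the 14.2% over all counts, are therefore not directly comparable.

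Among the other core clock genes, wide standard errors were found mainly in transcriptional regulators. Of 21 such genes, 20 were tested, because Rorb had no adjusted p, and 0 were called in the authors' deposited table, beside 6.57% of all tested genes, with 3 at an unadjusted p below 0.05, beside 19%. Among 9 tested transcriptional regulators, a class that includes the repressors Cry2 and Ciart, 5 had a standard error ratio of at least 1.5. Their median was 2.01. Ciart, a repressor of the BMAL1 complex, had 2.51, Nfil3 2.28, Bhlhe40 2.27 and Bhlhe41 2.10, while Hlf, the third PAR bZIP gene, had 0.943. Among 11 genes for kinases, phosphatases and ubiquitin enzymes, together with Timeless, 1 had a ratio of at least 1.5 and the median was 0.890. That gene was Usp2, a deubiquitinase gene that is itself a rhythmic clock target, at 2.40, whereas the casein kinase genes Csnk1d and Csnk2b stood at 0.685 and 0.615. The difference between these classes was not tested.

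**Figure D3:**
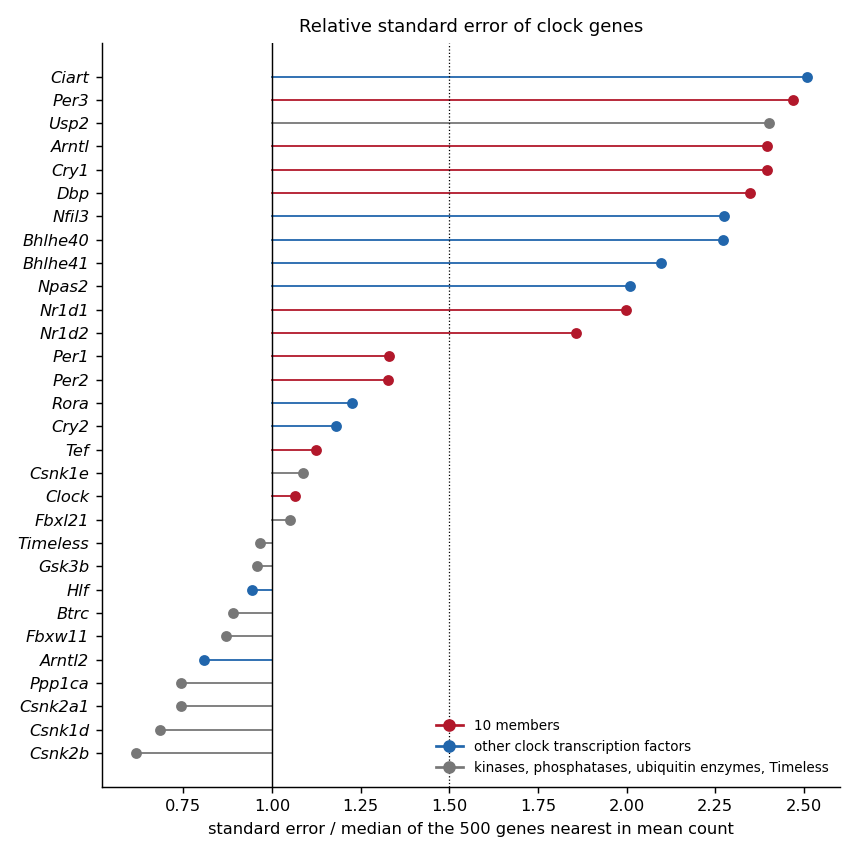
Ratio of each clock gene's standard error to the median of the 500 tested genes nearest in mean normalized count, sorted; the solid line marks 1 and the dotted line 1.5. Members (red) range from 1.07 for Clock to 2.47 for Per3, and the grey enzyme genes other than Usp2 lie between 0.615 and 1.09.

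The largest absolute log2 fold changes among these other core genes were those of Bhlhe41, Arntl2 and Bhlhe40. Bhlhe41 (DEC2), a repressor at E-boxes, was at 1.33 ± 0.46 (log2, SE, p = 0.00400, adjusted p = 0.0573) by the authors' deposited table, an interval of 1.34 to 4.71 times, at a mean normalized count of 52.6. Its paralogue Bhlhe40 (DEC1), which also responds to feeding and insulin, was at 0.68 ± 0.27 (log2, SE, adjusted p = 0.109) by the authors' deposited table. Arntl2, a paralogue of Arntl at a mean normalized count of 19.8, stood at 0.69 ± 0.25 (log2, SE, adjusted p = 0.0655) by the authors' deposited table. Bhlhe41 and Arntl2 fall outside the naming rule and were chosen after their values were seen. These values lie on the positive side, opposite to 9 of the 10 members, and none of them was called.

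Opponents and paralogues of the members gave no calls either. Nfil3, the repressor that competes with DBP and TEF at D-boxes, was at -0.39 ± 0.25 (log2, SE, adjusted p = 0.400) by the authors' deposited table. Rora, an activator at the elements that REV-ERB proteins silence, was at -0.27 ± 0.14 (adjusted p = 0.274), log2 with SE from the authors' deposited table. Cry2 at -0.04 ± 0.13, Ciart at -0.17 ± 0.38 and Hlf at 0.05 ± 0.10 (log2, SE) also had adjusted p above 0.05 in the deposited table. Usp2 was at -0.48 ± 0.26 (log2, SE, adjusted p = 0.286) by the authors' deposited table. The remaining tested enzyme genes and Timeless all had log2 fold changes between -0.23 (Timeless) and 0.09 (Csnk1e) in the authors' table.

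Grouping the genes by the hour at which they are known to peak in mouse liver did not separate them by sign. Arntl, Npas2, Clock, Nfil3 and Cry1, which peak around the end of the dark phase, were negative for 4 of 5 genes, with a median log2 fold change of -0.21. The exception was Npas2, also named outside the rule, at 0.26 ± 0.84 (log2, SE) at a mean normalized count of 7.22 by the authors' deposited table. The other group is broad, with peaks from the light phase to the early dark phase. It holds Nr1d1, Nr1d2, Dbp, Tef, Hlf, Per1, Per2, Per3, Ciart, Bhlhe41 and Usp2. Of these 11 genes, 8 were negative, with a median log2 fold change of -0.05. Of all tested genes, 50.8% were negative. No gene of either group was called, beside 6.57% of all tested genes. With medians of 2.28 and 2.00, both groups had standard error ratios above 1.

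Clock outputs held calls on both sides. The 3 output lists were chosen with earlier results of these data known, so the shares set beside their calls are description only. Of 34 distinct genes in 3 output lists, 6 were called in the authors' deposited table, 2 positive and 4 negative, beside 3.67% and 2.9% of all tested genes, and the lists' median log2 fold change was -0.10. Among 10 genes linked to PAR bZIP factors, 1 was called, beside 6.57% of all tested genes, which was the P450 oxidoreductase gene Por, at -0.70 ± 0.14 (log2, SE, adjusted p = 6.1e-05) by the authors' deposited table. The most abundant uncalled members were the carboxylesterase gene Ces3a at 0.40 ± 0.22 and the heme synthesis gene Alas1 at -0.23 ± 0.28 (log2, SE, authors' deposited table). Cyp7a1, the rate-limiting enzyme of bile acid synthesis and a classic rhythmic output, was at -0.52 ± 0.38 (log2, SE, adjusted p = 0.498) by the authors' deposited table and is named although it falls outside the naming rule.

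Of 11 genes linked to REV-ERB, 3 were called in the authors' deposited table, beside 6.57% of all tested genes. This list too was chosen with earlier results known, and enrichment was not tested. Pck1, a gluconeogenic enzyme gene, was at -1.62 ± 0.24 (adjusted p = 1.2e-08) and its coactivator gene Ppargc1a at -1.30 ± 0.22 (adjusted p = 5.9e-07), both log2 with SE from the authors' deposited table. Fgf21, a fasting hormone gene, was at 1.21 ± 0.39 (log2, SE, adjusted p = 0.0332) by the authors' deposited table. That call was lost when the deposited p-values were adjusted over every gene (0.0615) or by Benjamini-Yekutieli (0.341), after each statistic was divided by the scaled median absolute deviation of all tested genes (0.561), and at a threshold of 0.01. The abundant uncalled genes of this list were the desaturase gene Scd1 at -1.14 ± 0.47 and the lipin gene Lpin1 at -0.93 ± 0.35 (adjusted p = 0.0915), log2 with SE from the authors' deposited table. All 11 genes had a standard error ratio of at least 1.5, and Npas2 and Nfil3 among them are also counted with the other core clock genes.

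Of 13 E-box outputs and other rhythmic liver genes, 2 were called in the authors' deposited table, beside 6.57% of all tested genes. St3gal5, a ganglioside synthesis gene, was at -0.70 ± 0.17 (adjusted p = 0.00266) and Pdzrn3 at 0.65 ± 0.18 (adjusted p = 0.0107), each log2 with SE from the authors' deposited table. Nampt, the NAD salvage enzyme gene under direct E-box control, was at -0.17 ± 0.17 (log2, SE) and Tspan4 at 0.02 ± 0.16 (log2, SE), both uncalled in that table.

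**Figure D4:**
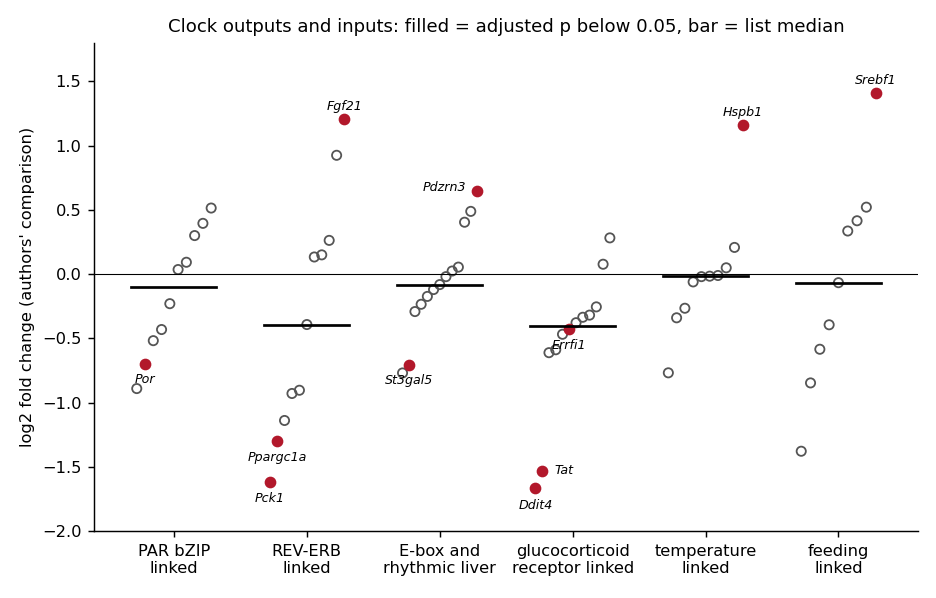
Log2 fold change of genes in 3 clock output lists and 3 clock input lists in the authors' comparison; each point is a gene, filled and named where its adjusted p is below 0.05, and the bar is the list median. Calls run from Ddit4 at -1.66 to Srebf1 at 1.41, and the list medians lie between -0.40 and -0.02.

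Signals that reset the liver clock were described through 3 input lists, also chosen with earlier results of these data known. Shares set beside their calls are description only. Of 12 genes linked to the glucocorticoid receptor, which include Per1, 10 were negative in sign, beside 50.8% of all tested genes, with a list median of -0.40. The authors' deposited table called 3 of them, all negative, beside 2.9% of all tested genes called negative. These were the stress gene Ddit4 at -1.66 ± 0.45 (adjusted p = 0.00804), the tyrosine aminotransferase gene Tat at -1.53 ± 0.23 (adjusted p = 1.2e-08) and the EGFR inhibitor gene Errfi1 at -0.43 ± 0.11 (adjusted p = 0.00375), log2 with SE from the authors' deposited table. The metallothionein genes Mt1 at 0.08 ± 0.34 and Mt2 at -0.33 ± 0.52 (log2, SE) were not called there.

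Temperature-linked genes had 1 call among 10, near the 6.57% of all tested genes. It was the small heat shock protein gene Hspb1 at 1.16 ± 0.24 (log2, SE, adjusted p = 8.6e-05) by the authors' deposited table, and the list median was -0.02. The chaperone gene Hspa8 at -0.26 ± 0.22 and the splicing factor gene Srsf5 at 0.05 ± 0.13 (log2, SE) were not called in it. Feeding-linked genes had 1 call among 9, again near that share, which was Srebf1, a regulator of fatty acid synthesis, at 1.41 ± 0.23 (log2, SE, adjusted p = 5.3e-07) by the authors' deposited table. Ppp1r3b, which targets glycogen synthase, was at 0.34 ± 0.20 and the insulin-repressed gene Igfbp1 at -1.38 ± 0.71 (log2, SE, adjusted p = 0.272) by the authors' deposited table. Dividing each statistic by the scaled median absolute deviation of all tested genes (1.44) also ended the calls of Por, St3gal5, Pdzrn3, Errfi1, Ddit4 and Hspb1, but not those of Pck1, Ppargc1a, Tat and Srebf1.

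The labelled tissue was checked against marker genes. Hepatocyte genes were abundant, with mean normalized counts from 33089 (Tat) to 1079857 (Alb), while the adipocyte genes Adipoq, Plin1 and Retn were below 1 and had no adjusted p in the authors' deposited table. Of 32 tested markers, 24 were negative in sign, beside 50.8% of all tested genes. In all 3 were called, beside 6.57% of all tested genes, and all 3 were negative, beside 2.9%. Hepatocyte markers were negative for 5 of 6, with 2 called, which were Tat, given above, and the urea cycle gene Cps1 at -0.93 ± 0.15 (log2, SE, adjusted p = 2.9e-07) by the authors' deposited table. All 4 Kupffer cell markers were negative, with 1 called. It was Timd4, at -0.76 ± 0.26 (log2, SE, adjusted p = 0.0494) by the authors' deposited table. That value is just below the threshold, and the call was not examined under the alternative settings. The 4 sinusoidal endothelial, 4 stellate, 3 T and NK cell and 2 neutrophil markers were also all negative and the 4 cholangiocyte markers all positive, with 0 called. Of the B and plasma cell markers 2 were positive and 1 negative, and of the erythroid markers 1 and 1, with 0 called. Counts were low for T and NK cell markers, at most 12.6, and for the cholangiocyte genes Krt19 (13.2), Krt7 (10.3) and Epcam (19.2). The part of these cell types in the values of clock genes, most of which are expressed in many cell types, was not tested. In whole liver, fewer cells of a type and less RNA per cell cannot be told apart.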

How the data were processed

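Liver RNA of 16 mice was sequenced, with libraries made by a stranded kit per the labels' protocols. The submitters' processing notes name GRCm38, HTSeq 0.11.1, HISAT2, Trimmomatic and FastQC, without roles. Per the file headers, the authors' table holds a mean normalized count (a signal), a log2 fold change and its SE, a test statistic (a score) and the deposited p-value with its adjustment. The statistic equals fold change over SE, its p is the 2-sided normal p, and the adjusted p is the Benjamini-Hochberg value over 16288 genes. The sources used here do not state the authors' model or the sides compared.

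Another 16 columns of values carry library codes that fit no sample's labels and were not used, so depth per sample, spread over libraries, correlations between clock genes and the planned diet test were not run. Intervals are the estimate ± 1.96 SE. Lengths and positions came from GENCODE M21 (GRCm38). The members and lists were chosen with earlier results of these data known, and the standard error ratio, its 1.5 limit and the promoter motifs were chosen after the values and sequences were seen. Named were all members, other core genes that were called or had a mean normalized count of at least 100 (enzyme genes by range), up to 4 called genes per list by p and the 2 most abundant uncalled ones, and overlapping genes; exceptions are stated, and a few genes first planned for the lists are not reported here. Analyses used Python 3.11.15, pandas 2.3.3 and numpy 2.4.6, and both steps were tested on simulated data.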

Additional observations from a re-analysis of the deposited data

How the results depend on the processing

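The count of 0 called members among 10 was also found under all 8 alternatives, which were Benjamini-Hochberg over every gene, Benjamini-Yekutieli, thresholds of 0.01 and 0.1, count minimums of 10 and 100, a scaled statistic and centring on the median. Benjamini-Yekutieli, the threshold of 0.01 and the scaled statistic can only remove calls, so a count of 0 could not change under them. The lowest deposited adjusted p of a member was 0.188 (Per1), above the threshold of 0.1 as well. With a threshold of 0.1, the other core clock genes had 2 calls in place of 0 (Arntl2 and Bhlhe41), the PAR bZIP list 2 in place of 1 and the REV-ERB list 4 in place of 3 (Lpin1 added). With Benjamini-Yekutieli, and likewise with a threshold of 0.01, the E-box list had 1 call in place of 2 and the REV-ERB list 2 in place of 3 (Fgf21 lost). The REV-ERB list also had 2 with Benjamini-Hochberg over every gene, and the glucocorticoid list had 2 in place of 3 (Ddit4 lost) with Benjamini-Yekutieli. With the statistic divided by its scaled median absolute deviation (1.44), the PAR bZIP, E-box and temperature lists had 0 calls, the glucocorticoid list 1 and the REV-ERB list 2, each of these last in place of 3. The share of all tested genes called under each alternative is not given here. A change in a list's count therefore cannot be set against the change over all genes. The 6 members with a standard error ratio of at least 1.5 were 6 with the 200 or 1000 nearest genes and 4 at a limit of 2; these settings were chosen after seeing the data. No paired analysis was possible because no library column could be matched to a sample, which also precluded leaving out replicates, filters on counts per sample and a second count test. Depth per sample is unknown here, and the precision is the authors' standard error.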

Other observations

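Some of the widest standard errors for a given count lay in clock outputs and inputs, chosen here after their values were seen. Elovl3, a fatty acid elongase gene with a strongly rhythmic liver transcript, had a ratio of 6.02 at 0.92 ± 0.71 (log2, SE) by the authors' deposited table. Dusp1, an immediate early phosphatase gene, had a ratio of 5.31 and Igfbp1 one of 5.23. Noct, the rhythmic gene that encodes nocturnin, had a ratio of 2.69 at -0.77 ± 0.30 (log2, SE, adjusted p = 0.105) by the authors' deposited table, and the cold-inducible RNA-binding protein gene Cirbp one of 2.27 at -0.02 ± 0.27 (log2, SE). Over the 65 distinct genes of the 6 lists, 45 had a ratio of at least 1.5, beside 14.2% of all tested genes and 16 of 32 cell type markers. The 65 include the members Per1 and Cry1 and the core clock genes Npas2 and Nfil3, which were already counted above. Of these, Cry1 (2.40), Npas2 (2.01) and Nfil3 (2.28) had such ratios, and Per1 (1.33) did not.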
